A study of Sus scrofa and Bos taurus with 31 samples.

Results

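Open chromatin was described at 5 genes that direct the formation of fat cells, PPARG, CEBPA, CEBPB, CEBPD and EBF2, in 16 pig libraries. The genes were chosen by name, and each was measured over its whole length and 10 kb on either side. They are 5 of the 20394 protein-coding genes that lie on sequences with peaks.

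PPARG is a nuclear receptor that binds fatty acid ligands, pairs with an RXR receptor and switches on the genes of lipid storage in fat cells. CEBPB and CEBPD are leucine zipper factors that act early in adipogenesis and induce PPARG and CEBPA, which then maintain each other's expression. EBF2 acts upstream in fat cell precursors and is known for its role in brown and beige fat. PPARG has alternative promoters, and the protein named PPARG2, which carries a longer amino terminus, is made from a downstream promoter used mainly in fat cells. CEBPA is also a major factor of hepatocytes, and PPARG and the CEBP factors act in macrophages as well.

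ATAC-seq, in which a transposase cuts DNA that is free of nucleosomes, was performed on cryopreserved nuclei of adipose, liver, lung, spleen, skeletal muscle, cerebellum, cerebral cortex and hypothalamus. Each tissue was sampled in the same 2 pigs (P348 and P350), castrated male Yorkshire littermates that were 6 months old and received no treatment stated in the sources used here, and the adipose was subcutaneous. The lists held 99960 to 217308 peaks covering 64.1 to 156 Mb, with 163921 peaks (125 Mb) in adipose of P348 and 115901 (82.1 Mb) in adipose of P350. The lists give no read counts, read totals were not used here, and the number of animals limits the precision. With 1 library per animal and tissue, the spread between P348 and P350 includes technical differences.

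The unit used throughout is the number of bases of a window that lie inside peaks, relative to all bases inside peaks in the library (peak bases per Mb). It corrects for the total length of a list, and since a longer gene has a larger window, levels of different genes cannot be compared. The tissue is a mixture of cells, so fewer cells of a type and less open chromatin per cell cannot be told apart.

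Both adipose libraries were set against 6 adipocyte markers (ADIPOQ, PLIN1, LEP, CIDEC, FABP4 and LIPE). All 6 had peak bases in both adipose libraries, with sums of 177 and 144 peak bases per Mb. The sums were 199 and 198 in spleen and 159 and 155 in liver, so the mean of adipose ranked second of 8 tissues. The 6 endothelial markers had their highest mean sum in adipose (667 and 668), close to lung (625 and 625) and hypothalamus (725 and 517). The 6 skeletal muscle markers stood at 119.6 and 147 in adipose against 548 and 661 in muscle. The 6 hepatocyte markers summed to 97.7 in adipose of P348 and 227 in adipose of P350, against 420.3 and 277 in liver, and APOH was at 0 in both adipose libraries. Of 6 keratinocyte markers 5 were found, with their lowest mean sum in adipose (86.4 and 93.5) and their highest in skeletal muscle (324 and 257). Of these, TP63 alone lay below all other libraries in adipose (26.1 and 27.8 against 45.1 to 279). The median over genes of the highest fold enrichment in a window was 3.79 and 3.87 in adipose, below the 4.12 to 7.63 of the other 14 libraries.

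The annotated start sites of PPARG lie far apart, and the sequences before them are shown because open chromatin separated them. PPARG (gene 397671) occupies chr13:68301566-68433951 on the plus strand of Sscrofa11.1, with 8 transcripts that have 8 different start sites. Of these, 4 begin within 0.979 kb of each other, and the others lie 42.8, 62.3, 62.4 and 81.5 kb downstream of the first. In 7 transcripts the coding sequence starts at the same downstream exon (68383636) and is 1428 bases long. Only NM_214379.1, which starts at +62.4 kb, begins its coding sequence in its own first exon (79 coding bases there, 1515 in all), the arrangement described for PPARG2. The 250 bases before 3 of the start sites are given from the RefSeq assembly Sscrofa11.1, 5′ to 3′ on the plus strand, at chr13:68301316-68301565, chr13:68363581-68363830 and chr13:68382822-68383071. Capitals mark matches to the CEBP core TTGCNNAA on either strand, which 7.68% of all 47135 promoters of this length hold.
PPARG first start: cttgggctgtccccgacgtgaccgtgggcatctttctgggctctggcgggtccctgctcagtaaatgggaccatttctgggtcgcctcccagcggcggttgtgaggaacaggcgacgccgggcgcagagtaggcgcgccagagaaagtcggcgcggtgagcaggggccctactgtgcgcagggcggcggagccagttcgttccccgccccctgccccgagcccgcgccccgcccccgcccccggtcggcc
PPARG start at +62.3 kb: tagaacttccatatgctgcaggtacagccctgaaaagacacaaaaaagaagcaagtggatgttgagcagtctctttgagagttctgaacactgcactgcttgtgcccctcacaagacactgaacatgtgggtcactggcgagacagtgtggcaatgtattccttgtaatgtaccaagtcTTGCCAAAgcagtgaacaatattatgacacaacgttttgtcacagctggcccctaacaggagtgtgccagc
PPARG start at +81.5 kb: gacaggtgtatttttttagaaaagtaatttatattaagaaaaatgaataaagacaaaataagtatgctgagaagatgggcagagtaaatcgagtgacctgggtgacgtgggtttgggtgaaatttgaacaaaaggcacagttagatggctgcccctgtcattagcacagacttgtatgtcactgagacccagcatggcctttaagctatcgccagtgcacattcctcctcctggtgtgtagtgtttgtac
The first sequence is rich in G and C (72.4%), against 46.8% and 41.6% in the downstream ones. A CEBP match stands at 71 to 64 bases before the start at +62.3 kb, which is 241 to 234 bases before that of NM_214379.1. A second match lies 45 to 38 bases before NM_214379.1, within the first exon of the neighbouring transcript. A match is a description of the letters and not a binding site.

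At the PPARG start sites, chromatin was open upstream in every tissue and in few libraries downstream. All 16 libraries had a peak within 2 kb of the 4 upstream starts, and it covered the first start itself in 16 of 16. In this upstream window adipose held 13.9 and 20.6 peak bases per Mb, within the range of 8.68 to 21.0 (median 13.01) over the other 14 libraries. No library had a peak within 2 kb of the start at +42.8 kb, as was the case in all 16 libraries for 5.95% of all protein-coding starts. Within 2 kb of the NM_214379.1 start, peak bases were found in adipose of P348 (4.88 per Mb) and in lung of P348 (3.16) and P350 (1.87), and none in adipose of P350. The adipose animals thus disagreed within this window, and no peak covered the start base itself in any of the 16 libraries. Part of the P348 value came from a region at chr13:68365713-68367138 that reaches past the window (4.67-fold). In that region adipose of P350 had a peak as well (4.89-fold), which lay outside the window. The start at +81.5 kb had peak bases in both adipose libraries (3.63 and 8.00 per Mb), in spleen of P348 (3.02) and in cerebellum of P350 (5.72). It was the only PPARG start with a peak in both animals of adipose and of no other tissue.

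**Figure D1:**
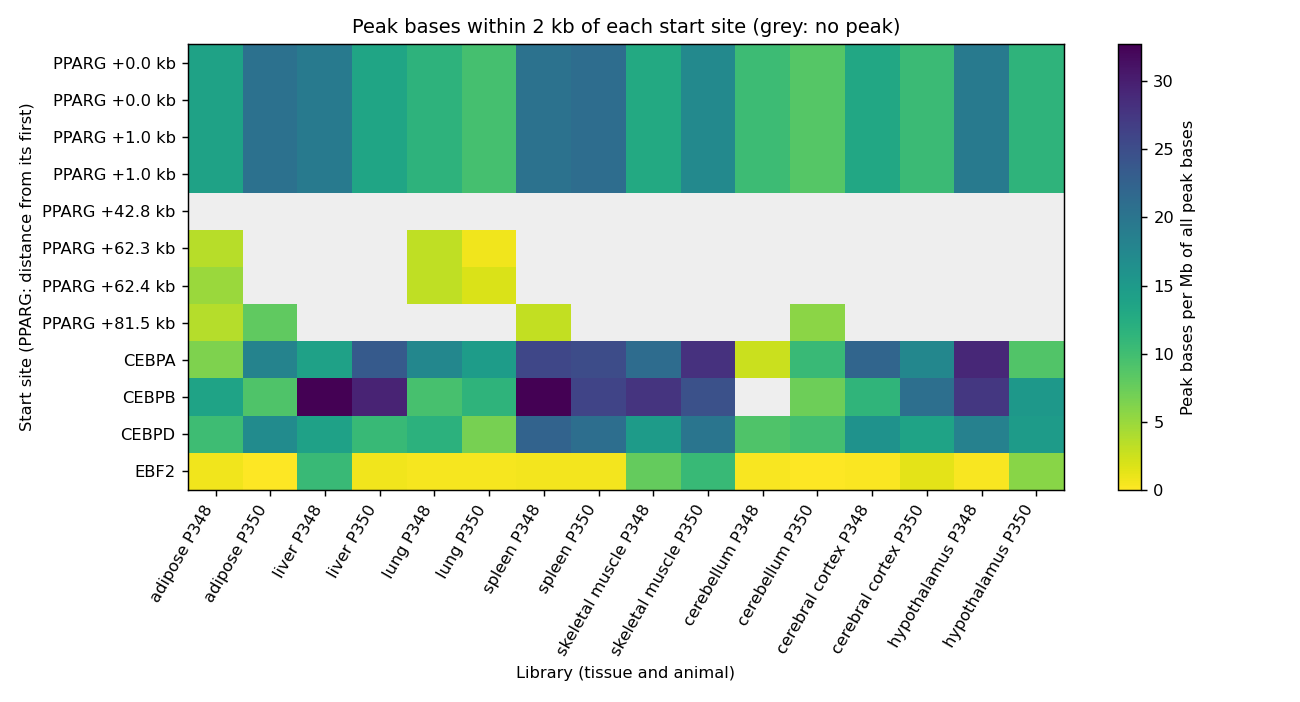
Peak bases per Mb of all peak bases within 2 kb of each start site of the 5 genes (rows) in the 16 libraries (columns), with grey for no peak. PPARG starts are named by their distance in kb from the first one. The 4 upstream PPARG starts share 1 peak seen in 16 of 16 libraries, the start at +42.8 kb has none, and those at +62.3 to +81.5 kb have peaks in 3 or 4 libraries.

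Adipose was compared with the mean of the 7 other tissues at all 42396 starts that passed the filter on low values, and 2.38% were called at an adjusted p under 0.05 (limma, Benjamini-Hochberg over all starts). Of the 12 member starts 10 passed the filter, which the PPARG starts at +42.8 and +62.3 kb did not, and none of the 10 was called. The largest difference was at the PPARG start at +81.5 kb, with 3.11 ± 0.86 (SE) on the log2(peak bases per Mb + 0.5) scale and an adjusted p of 0.0981. At NM_214379.1 it was 1.35 ± 0.69 with an adjusted p of 0.413, and at the upstream starts 0.30 ± 0.23 with an adjusted p of 0.637. With peaks of q under 0.01 the upstream starts passed (0.83, adjusted p = 0.0303) where 25.5% of starts were called. With q under 0.0001 they passed (2.92, adjusted p = 0.0282), as did the CEBPD start (2.14, adjusted p = 0.000218), where 56.5% were called. With windows of 500 bp, where 3.16% of starts were called, the start at +81.5 kb passed (3.17, adjusted p = 0.0233). When only peaks with q under 0.01 were used, 1 of the 16 libraries was left with a peak within 2 kb of the start at +81.5 kb. At NM_214379.1 a single library decided the value, which was -0.37 without adipose of P348 and 3.06 without adipose of P350.

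Over the whole PPARG window, adipose stood second to spleen. The peak bases per Mb were 98.5 and 83.1 in adipose (P348 and P350), 138 and 102 in spleen, 68.9 and 73.3 in skeletal muscle, 61.0 and 61.1 in lung, and 56.8 and 34.4 in liver. In the brain they were 37.7 and 41.0 in hypothalamus, 42.8 and 34.8 in cerebral cortex and 22.9 and 31.7 in cerebellum. The 3 brain tissues and liver held the lowest means, and the ranges of liver, hypothalamus and cortex overlapped. Both spleen libraries lay above both adipose libraries, which in turn lay above the remaining 12. The mean of adipose was 90.8 ± 10.9 (SD, n = 2 animals), against 57.6 ± 31.2 (SD, n = 7 tissue means) elsewhere.

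The adipose difference at PPARG did not pass the test across all genes. It was 0.75 ± 0.22 (SE) on the log2(peak bases per Mb + 5) scale, with a 95% confidence interval of 0.28 to 1.22, an unadjusted p of 0.00382 and an adjusted p of 0.0721 (limma over 18506 genes). A fold change on this scale understates the change of low values. In this comparison 3.17% of genes were called, 394 higher and 192 lower in adipose, and none of the 5 members. The exact two-sided permutation test over the 120 choices of 2 libraries gave p = 0.15 for PPARG, with 0.00833 as the smallest it can give. It treated all libraries as exchangeable and did not keep the 2 libraries of a tissue together, although these are not independent. The median difference over all genes was 0.17, and after centring each library on its median 254 genes were called higher and 357 lower.

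**Figure D2:**
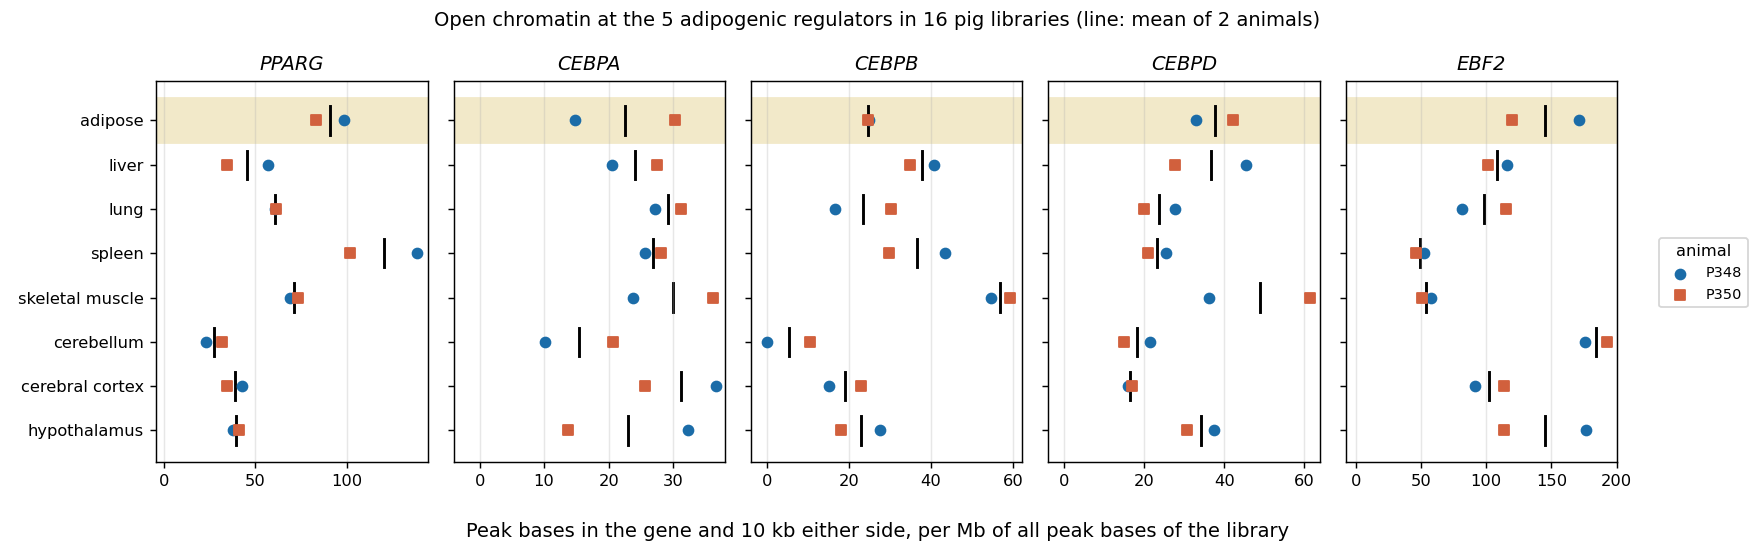
Peak bases per Mb of all peak bases (x axis) in the gene and 10 kb either side, for each of the 5 genes (panels) in 8 tissues (rows). Points are the 2 animals and vertical lines their means. At PPARG the adipose libraries (98.5 and 83.1) sit above all others except spleen, and at EBF2 adipose, cerebellum and hypothalamus hold the highest means.

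The peaks of all libraries were merged into regions where they shared at least 1 bp, which gave 27 regions in the PPARG window, and a region was called open in a tissue where both animals had a peak. Adipose had 8 open regions there, as had lung, spleen and skeletal muscle, against 4 or 5 in liver and each brain tissue. Of the 8 adipose regions, 5 were shared with lung and 5 with skeletal muscle, 3 with spleen and 3 with liver. Over the genome, 73.2% of adipose regions were shared with lung, 49.4% with muscle, 45.9% with spleen and 53.6% with liver. Spleen and adipose, the tissues with the highest totals, shared 3 of their 8 regions, and 2 regions were open in spleen alone (4.11 and 3.56-fold in one, 5.35 and 4.27-fold in the other).

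A pair of PPARG regions beside the NM_214379.1 start was open in adipose, lung and skeletal muscle and had no peak in the other 10 libraries. The first, at chr13:68357581-68358421 in an intron, had a fold enrichment over local background of 4.08 and 3.24 in adipose, 4.30 and 4.42 in lung and 4.24 and 5.72 in muscle. The second, at chr13:68365713-68367138 over an intron and a noncoding exon, is centred 2424 bp past the NM_214379.1 start and had the highest fold of the adipose regions at PPARG. Its fold was 4.67 and 4.89 in adipose, 4.37 and 3.54 in lung and 5.65 and 7.03 in muscle. The fold of muscle thus exceeded that of adipose in both regions, and no spleen, liver or brain library had a peak there. How many adipose regions of the genome have this pattern was not counted. The median over genes of the highest fold was also higher in muscle (6.34 and 6.99) than in adipose (3.79 and 3.87). Part of the second region (chr13:68366276-68366575, plus strand) is shown because it is the strongest adipose region nearest the PPARG2 start.
PPARG region past the NM_214379.1 start: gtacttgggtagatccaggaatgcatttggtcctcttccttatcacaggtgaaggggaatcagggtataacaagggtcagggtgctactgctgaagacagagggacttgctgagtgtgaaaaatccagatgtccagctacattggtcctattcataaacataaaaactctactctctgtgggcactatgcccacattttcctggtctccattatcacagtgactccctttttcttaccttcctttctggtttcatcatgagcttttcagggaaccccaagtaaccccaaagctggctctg
These 300 bases hold no CEBP match, and the whole region holds 2.

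Regions open in adipose and no other tissue numbered 2 of the 8 at PPARG (25.0%), beside 10.5% of the 77367 adipose regions of the genome. One, at chr13:68382926-68383785 over the start at +81.5 kb, had folds of 2.73 and 2.84 in adipose and single peaks in spleen of P348 (2.65) and cerebellum of P350 (2.98). The other, at chr13:68427237-68428663 in an intron near the 3′ end, had folds of 4.56 and 2.74 in adipose and single peaks in liver of P348, spleen of P348 and muscle of P350. Each was therefore also seen in 1 animal of other tissues. In the opposite direction, a region at chr13:68439707-68442871 past the 3′ end had a peak in all 14 libraries of other tissues (2.40 to 5.19-fold) and in neither adipose library. The share of all regions with this pattern was not counted, and the median over genes of the highest fold was also lowest in adipose (3.79 and 3.87). The strongest region of the window, at chr13:68406717-68407471, reached 13.9-fold in muscle of P350 and stood at 4.03 and 4.17 in adipose. These last regions, the spleen regions and the first of the pair above were picked after their values were seen.

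**Figure D3:**
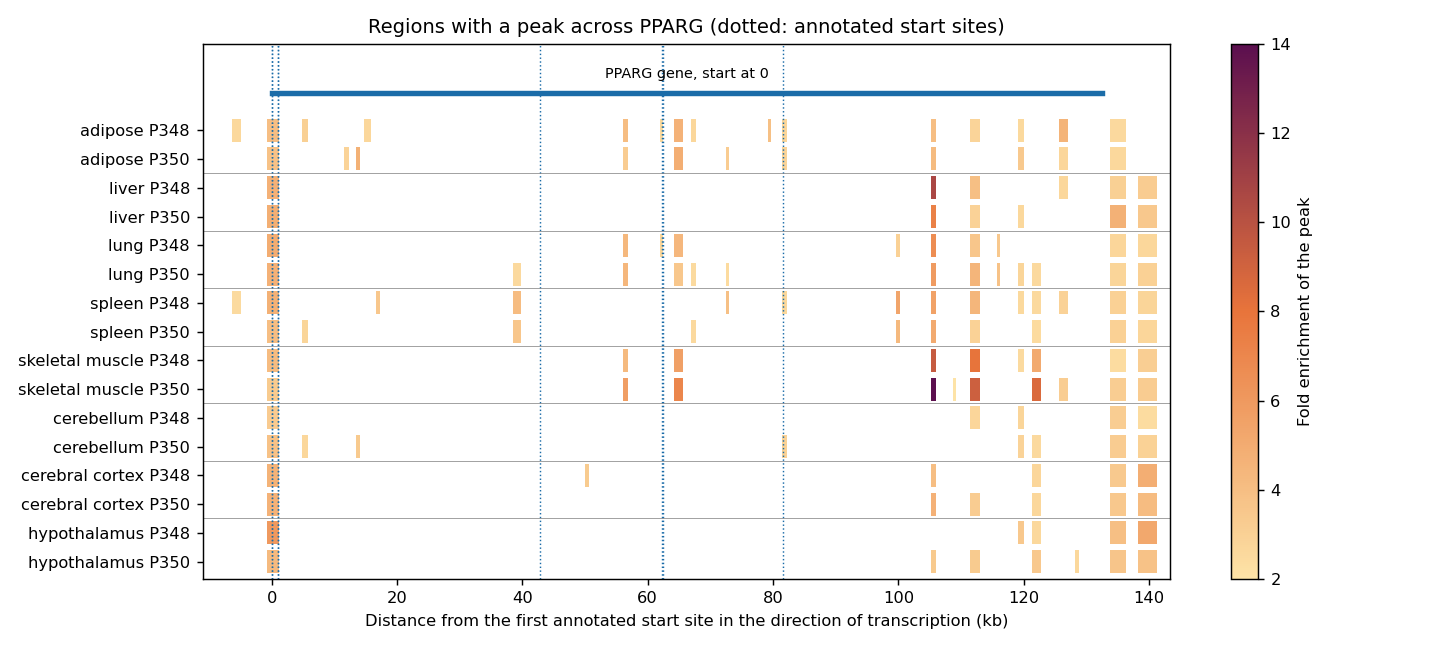
Regions with a peak across PPARG in the 16 libraries (rows), by distance in kb from the first start site (x axis), coloured by fold enrichment. Each bar spans the merged region and dotted lines mark the 8 annotated starts. The bars just before and just after the starts at +62.3 and +62.4 kb are present in adipose, lung and skeletal muscle, and the last bar on the right is missing from both adipose libraries.

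EBF2 had its highest means in cerebellum, hypothalamus and adipose. It lies at chr14:9816992-10027574 on the minus strand and has 1 annotated transcript. The peak bases per Mb were 171 and 119.5 in adipose, 176 and 193 in cerebellum, 177 and 114 in hypothalamus, 116 and 101 in liver, 91.4 and 113 in cerebral cortex and 81.7 and 115 in lung. In skeletal muscle they were 57.5 and 50.4, and in spleen 51.9 and 46.3. Along the order of means the ranges of cerebellum and hypothalamus overlapped, as did those of hypothalamus and adipose, and both adipose libraries lay above the libraries of liver, cortex, lung, muscle and spleen. The adipose difference was 0.55 ± 0.22 (SE, 95% confidence interval 0.08 to 1.01) with an adjusted p of 0.160 in limma, and the exact permutation test gave p = 0.242. The adipose libraries themselves differed, with 27 peaks in P348 and 13 in P350.

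The EBF2 start site was not covered by a peak in any of the 16 libraries. The peak counted within 2 kb in 16 of 16 libraries reached into that window by 1 to 773 bases, and none lay within 500 bp of the start. It belongs to a region at chr14:10025169-10026346, centred 1817 bp downstream of the start and over an exon, that was open in all 8 tissues. Its fold was 4.37 and 4.45 in adipose and 7.12 to 12.1 in the other 14 libraries, so both adipose libraries were lowest. The median over genes of the highest fold was also lowest in adipose (3.79 and 3.87, against 4.12 to 7.63 in the other libraries). In a comparison of the highest fold in each window, centred on each library's median, EBF2 was lower in adipose (-0.50 ± 0.09 on the log2(fold + 1) scale, adjusted p = 0.00596, limma), where 14.2% of genes were called. That comparison was chosen after seeing the data and rests on the highest peak of a window. Not every EBF2 region was low in adipose. A region picked from its values (chr14:9907031-9909126, intron) had folds of 3.29 and 3.07 in adipose and 2.34 to 2.82 in the 7 other libraries with a peak. Another picked region (chr14:10030877-10032096, outside genes) had 2.77 and 2.70 in adipose and 2.61 to 4.93 in the 8 other libraries with a peak.

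The EBF2 window held 55 regions, 44 of them in introns, and 11 were open in adipose. Cerebellum had 20 open regions, spleen 1, and lung, cerebral cortex and hypothalamus 11 each. Of the 11 adipose regions, 8 were shared with cerebellum, 7 with lung and 3 with hypothalamus, beside 55.8%, 73.2% and 49.8% of all adipose regions. A region in an intron at chr14:9956398-9957061, 70845 bp downstream of the start, had a peak in both adipose libraries and in none of the other 14. Its folds were 2.42 and 2.64, and 2.60% of all adipose regions had no peak in any other library. Its central 300 bases (chr14:9956580-9956879, plus strand) are shown as the only member region with that pattern, with CEBP matches in capitals.
EBF2 adipose region: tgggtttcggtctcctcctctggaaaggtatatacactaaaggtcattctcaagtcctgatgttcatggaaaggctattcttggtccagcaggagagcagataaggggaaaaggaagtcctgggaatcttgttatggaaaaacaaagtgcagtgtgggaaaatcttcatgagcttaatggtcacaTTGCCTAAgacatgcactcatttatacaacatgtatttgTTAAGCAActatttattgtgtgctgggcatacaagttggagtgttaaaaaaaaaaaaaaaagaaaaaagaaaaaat
The other region open in adipose alone (chr14:9998950-10000366, intron), also picked from its values, had single peaks in cerebellum and hypothalamus of P350. The printed sequence holds 2 CEBP matches, and 12.8% of the central 300 bases of all 533944 regions hold at least 1. Neither it nor the other shown sequences hold a PPARG element of the direct repeat kind (2 copies of AGGTCA with 1 base between them) or an EBF element (TCCC and GGGA with 2 bases between them), which 0.0281% and 1.05% of all regions hold.

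**Figure D4:**
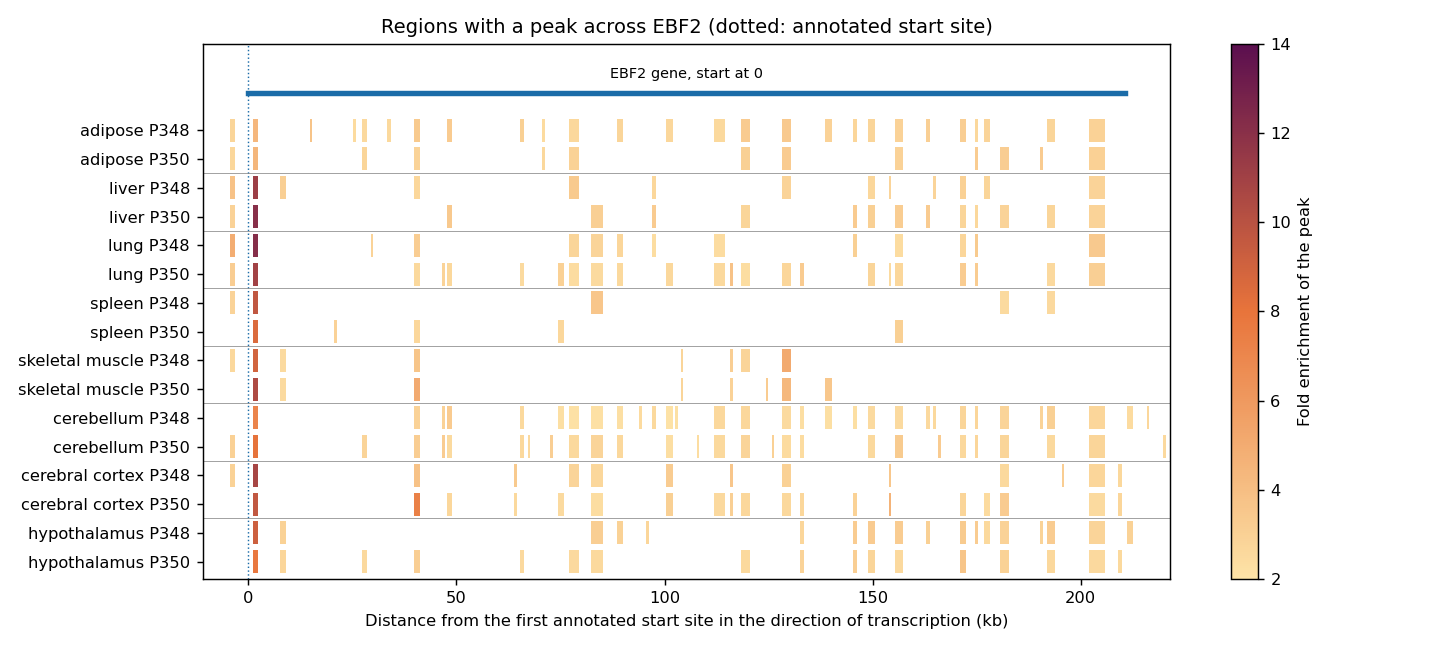
Regions with a peak across EBF2 in the 16 libraries (rows), by distance in kb from its start site in the direction of transcription (x axis), coloured by fold enrichment. Each bar spans the merged region. The bar just past the start is darkest outside adipose, spleen has few others, and cerebellum and adipose of P348 have bars along the whole gene.

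The 3 CEBP genes are short and their start sites were open almost everywhere. CEBPA lies at chr6:43083200-43085884 (minus strand), CEBPB at chr17:51722633-51723673 (plus) and CEBPD at chr4:79872863-79874481 (plus). A peak covered the start in 16 of 16 libraries at CEBPA and CEBPD and in 15 at CEBPB, the exception being cerebellum of P348. Over all protein-coding starts, 55.0% had a peak within 2 kb in all 16 libraries.

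At CEBPA, the factor that sustains PPARG in mature fat cells, adipose held 14.8 and 30.4 peak bases per Mb. Liver held 20.5 and 27.5, lung 27.1 and 31.3, spleen 25.7 and 28.1, skeletal muscle 23.8 and 36.1, cerebral cortex 36.7 and 25.6, hypothalamus 32.3 and 13.6 and cerebellum 10.1 and 20.6. The ranges of all neighbouring tissues in the order of means overlapped, and the adipose animals lay about as far apart as the lowest and the highest tissue mean (15.4 and 31.1). Adipose differed from the other tissues by -0.16 ± 0.30 (SE, adjusted p = 0.783, limma). The comparison with liver asked whether CEBPA, a hepatocyte factor, differed between these tissues. Liver minus adipose was 0.12 ± 0.40 with a 95% confidence interval of -0.72 to 0.97 and an adjusted p of 0.921, in a comparison where 1.00% of genes were called. The interval covers differences in either direction that 2 animals could not resolve, and an exact permutation test of 2 against 2 libraries cannot go below 0.333. The other members were not called either, with -0.95 ± 0.29 for PPARG (adjusted p = 0.138), 0.53 ± 0.43 for CEBPB (0.622), -0.06 ± 0.32 for CEBPD (0.960) and -0.38 ± 0.29 for EBF2 (0.581). With q under 0.01 PPARG was called lower in liver (-1.16, adjusted p = 0.0495) among 6.06% of genes. With q under 0.0001 PPARG (-1.78, adjusted p = 0.00646) and CEBPB (2.48, adjusted p = 0.0344) were called among 37.1%, and by the highest fold EBF2 was called higher in liver (0.49, adjusted p = 0.0160) among 17.3%.

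The peak over the CEBPA start was weaker in adipose than elsewhere. Its fold was 2.67 and 2.74 in adipose, 7.65 and 4.68 in liver and 3.22 to 7.65 over all 14 other libraries, so both adipose libraries were lowest. The folds of adipose were also the lowest over all genes, and after centring each library the highest fold in the CEBPA window differed by 0.16 between liver and adipose (adjusted p = 0.534). A second region upstream of CEBPA, at chr6:43091958-43093829, was open in adipose, lung and the 3 brain tissues. Its fold was 2.81 and 2.71 in adipose, and it had a peak in 1 of the 2 liver libraries (2.74) and in neither muscle library. No region of the CEBPA window was open in liver and without a peak in adipose.

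CEBPB, an early inducer of PPARG, was highest in skeletal muscle. The peak bases per Mb were 24.8 and 24.6 in adipose, 54.5 and 59.3 in skeletal muscle, 40.8 and 34.9 in liver, 43.4 and 29.8 in spleen, 16.6 and 30.2 in lung, 27.5 and 18.1 in hypothalamus, 15.1 and 22.8 in cortex and 0 and 10.4 in cerebellum. Adipose stood in the middle of the order, and its difference from the others was 0.04 ± 0.33 (adjusted p = 0.962, limma). A region upstream of the gene, at chr17:51712974-51714077, was open in adipose (2.82 and 2.42-fold), liver (6.82 and 5.66) and spleen (7.56 and 4.74). No cerebellum library had a peak there. The median over genes of the highest fold was also higher in liver (7.63 and 6.56) and spleen (6.16 and 5.01) than in adipose (3.79 and 3.87).

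CEBPD, which acts with CEBPB in the first steps, had 32.9 and 42.2 peak bases per Mb in adipose. Skeletal muscle held 36.2 and 61.4, liver 45.5 and 27.7, hypothalamus 37.5 and 30.6, lung 27.6 and 19.9, spleen 25.5 and 21.0, cerebellum 21.5 and 14.8 and cortex 15.98 and 16.99. Adipose overlapped with muscle, liver and hypothalamus and lay above the other libraries. The difference was 0.41 ± 0.25 (95% confidence interval -0.11 to 0.94, adjusted p = 0.338, limma). Of its 4 regions 3 were open in adipose, and 3 of the 4 lie in the body of the neighbouring gene SPIDR, which shares the window. The one at chr4:79882935-79884151 was open in adipose (2.79 and 2.77-fold), lung and skeletal muscle.

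**Figure D5:**
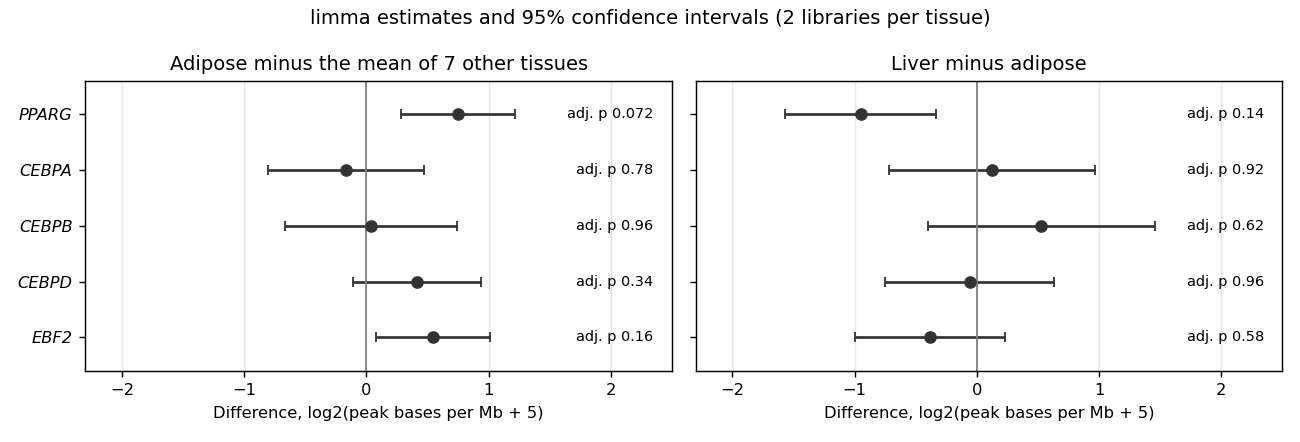
limma differences (points) with 95% confidence intervals (bars) on the log2(peak bases per Mb + 5) scale, for adipose minus the mean of the 7 other tissues (left) and liver minus adipose (right). The intervals of PPARG and EBF2 on the left lie above 0 before adjustment, that of PPARG on the right lies below 0, and no adjusted p is under 0.05.

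Spleen, skeletal muscle and cerebellum were also each compared with the mean of the other 7 tissues, in contrasts chosen after the values were seen. The counts of members called, 2, 3 and 4 of 5, stand beside high shares of all genes called, and in muscle and cerebellum they lie near those shares. In spleen, where 18.6% of genes were called, PPARG was higher (1.18 ± 0.22, adjusted p = 0.00367, limma) and EBF2 lower (-1.11 ± 0.22, adjusted p = 0.00477). The PPARG call was lost without spleen of P348 (adjusted p = 0.108) and the EBF2 call without either spleen library. The 6 leukocyte markers summed to 592 and 464 in spleen against 219 and 297 in adipose and 49.4 to 352 in the other libraries, and their part in the PPARG value was not tested.

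In skeletal muscle, where 46.7% of genes were called, CEBPB (1.25 ± 0.33, adjusted p = 0.00691) and CEBPD (0.76 ± 0.25, adjusted p = 0.0198) were higher and EBF2 was lower (-0.97 ± 0.22, adjusted p = 0.00257). All 3 calls were lost without muscle of P350 (adjusted p = 0.0936, 0.377 and 0.0609). In cerebellum, where 71.0% of genes were called and the median difference of all genes was -0.87, EBF2 was higher (0.95 ± 0.22, adjusted p = 0.00181). CEBPB (-1.97, adjusted p = 0.000254), PPARG (-1.05, adjusted p = 0.000998) and CEBPD (-0.60, adjusted p = 0.0400) were lower there, and the CEBPD call was lost in 9 of the 16 fits without 1 library. After centring each library on its median, EBF2 (1.82, adjusted p = 7.8e-05, limma) and CEBPB (-1.10, adjusted p = 0.00952) passed in cerebellum. PPARG (-0.18, adjusted p = 0.519) and CEBPD (0.27, adjusted p = 0.426) did not, nor did CEBPD in muscle (0.37, adjusted p = 0.237).

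No member had both adipose libraries above all 14 others, and 2.50% of genes did. At stricter limits on the peaks the members moved in both directions, and the share of all genes called rose. With peaks of q under 0.01, CEBPD passed (1.01, adjusted p = 0.0228) among 12.8% of genes, PPARG stood at 0.71, EBF2 at 0.49, CEBPA at 0.24 and CEBPB at 0.04. With q under 0.0001, PPARG (2.06, adjusted p = 0.000523), CEBPD (1.43, adjusted p = 0.0349) and EBF2 (1.01, adjusted p = 0.0465) passed among 48.0% of genes, while CEBPB (-1.22, adjusted p = 0.116) and CEBPA (-1.702, adjusted p = 0.124) did not. At that limit 13.1% and 11.08% of the adipose peaks were left, against 11.5 to 74.5% in the other libraries, and the part of this in the differences was not tested.

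Of the other genes of the pathway, 1 was called in adipose, in a comparison where 3.17% of all genes were called. Among 10 relatives of the members (PPARA, PPARD, CEBPE, CEBPG, EBF1, EBF3, EBF4, RXRA, RXRB and RXRG), 1 was called, and the median difference of the 10 was 0.34 against 0.17 over all genes. It was EBF1, another early factor of fat cell precursors and of B cells, with 342 and 217 peak bases per Mb in adipose against 41.4 to 244 in the other libraries (0.97 ± 0.23, adjusted p = 0.0381, limma). Its 2 animals differed, and the lower adipose library lay within the range of the others. PPARA had 35.9 and 66.3 in adipose (1.21 ± 0.47, adjusted p = 0.152). The RXR partners of PPARG did not pass, with RXRA at 144 and 62.0 and RXRG at 201 and 147 in adipose.

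Among 16 other regulators, such as KLF4, KLF15, STAT5A, SREBF1 and PRDM16, none was called in either direction, and their median was 0.08. ZNF467 had the lowest value, with 15.3 and 7.74 peak bases per Mb in adipose against 8.64 to 67.3 elsewhere (-1.24 ± 0.34, adjusted p = 0.0598). PRDM16, a brown fat regulator, had 109.9 and 65.3 in adipose against 36.4 to 279 elsewhere. Among 10 inhibitors of adipogenesis, such as DLK1, GATA2, WNT10B and NR2F2, none was called and the median was 0.25. Of 22 genes that PPARG and CEBPA switch on in fat cells, 20 passed the filter on low values and none was called, with a median of 0.31. PLIN4, a lipid droplet coat protein, had 45.0 and 66.5 in adipose against 2.49 to 86.2 elsewhere (1.03 ± 0.38, adjusted p = 0.132). AGPAT2, an enzyme of triglyceride synthesis, had 19.6 and 2.67 against 1.41 to 92.4 (-1.24 ± 0.42, adjusted p = 0.108). In the comparison of liver with adipose, where 1.00% of all genes were called, none of these lists had a called gene.

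The genes whose values over the 16 libraries ran most like those of each member were found by Pearson's r among genes over 1 Mb away or on other chromosomes. The libraries share animals and tissue totals, so the r values are descriptions. They were RPS6KB1 (0.94), TUBD1 (0.93) and HMGXB4 (0.92) for PPARG, SPG7 (0.94), LOC100522141 (0.90) and MAP3K10 (0.89) for CEBPA, and SLC16A3, NPLOC4 and GTF2IRD1 (all 0.96) for CEBPB. For CEBPD they were TUBA8 (0.89), FAM13A (0.85) and HOXA6 (0.84), and for EBF2 LOC100517176 (0.94) and LOC110261946 (0.91). None of these is among the other members. Genes near each other were not removed from these lists, so listed genes may share peaks.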

How the data were processed

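Per the labels and the study's methods, the authors prepared ATAC-seq libraries from cryopreserved nuclei and called broad peaks with MACS2 at a q-value limit of 0.05. The submitters' processing notes list Trim Galore 0.4.5, BWA 0.7.17, SAMtools 1.10 and Picard 2.18.17 and the pig build Sscrofa11.1. How reads were shifted or filtered for ATAC-seq is not given in the sources used here. Each of the 16 deposited pig lists gives a peak's position, a score, a fold enrichment (ratio) and the −log10 of its p-value and q-value, called per library with no pooling, so merged or weak peaks change covered length. The score and p-value columns entered no result. The 15 cattle lists were not used.

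From the positions, peak bases were summed over each protein-coding gene with 10 kb either side (RefSeq release 106, Sscrofa11.1, 270 sequence names matched) and within 2 kb of each start site, and divided by all peak bases in Mb. limma 3.58.1 (R 4.3.3, trend and robust) was fitted on log2(value + 5) for the 18506 of 20394 genes with a mean of at least 5, and on log2(value + 0.5) for the 42396 of 47135 start sites with a mean of at least 0.5. Benjamini-Hochberg adjustment covered all features fitted, at 0.05. The limma fit was tested on simulated gene values with added adipose differences, and the other steps were not tested in this way. The files hold no read counts, and read depth was not used here.

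The members and gene lists were chosen with earlier results of these data known. Named genes are the members, the called genes of 4 fixed lists (at most 6 a list) with examples picked from their values, and the 3 genes most like each member, 1 of which is not reported here. Named regions are, per member, those open in adipose with the fewest other libraries and with the highest fold, and others said to be picked from their values. Tissues share the animals P348 and P350, per the labels. Over 28 pairs of tissues the animals' differences correlated by -0.22 to 0.18 (mean -0.01), and the fit with the animal as a block was an alternative. Others were limits on q, lists of equal length, flank, start distance, number of peaks, scaling, pseudocount, low-value filter, limma options and leaving out each library. Peak height, median centring and the spleen, muscle and cerebellum contrasts were chosen after seeing the data.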

Additional observations from a re-analysis of the deposited data

How the results depend on the processing

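At the whole genes, PPARG was higher in adipose in all 30 alternatives and passed the test in 3 of them, with q under 0.0001 (2.06), with a pseudocount of 20 (0.60) and without cerebellum of P350 (0.78), and it ranged from 0.634 to 0.867 without 1 library and was lowest by the highest fold (0.18, adjusted p = 0.330). EBF2 passed higher with q under 0.0001 (1.01) and lower by the highest fold (-0.50), and CEBPD passed with q under 0.01 (1.01) and under 0.0001 (1.43). CEBPA and CEBPB passed in no alternative of this comparison. CEBPA changed sign with q under 0.01 (0.24), equal lists (0.0429), a flank of 50 kb (0.42) and without adipose of P348 (range without 1 library -0.584 to 0.255). CEBPB changed sign with q under 0.0001 (-1.22), equal lists (-0.13), a flank of 2 kb (-0.51), a pseudocount of 20 (-0.0412), the highest fold (-0.0857), median centring (-0.13) and in 2 fits without 1 library (range -0.0789 to 0.153). The numbers of genes called higher and lower were 1413 and 922 with q under 0.01, 4687 and 3685 under 0.0001, 102 and 97 with a pseudocount of 1, 818 and 291 with 20, 1505 and 1195 by the highest fold and 254 and 357 with centring. A flank of 50 kb gave 752 higher and no scaling 94 lower. Without 1 library they ranged from 0 to 1219 and from 0 to 372, with 0 and 0 without adipose of P350, 5 and 26 without adipose of P348 and 1219 and 372 without cerebellum of P350.

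In liver against adipose, the CEBPA difference changed sign with q under 0.01 (-0.39), equal lists (-0.25), no scaling (-0.21) and in 2 fits without 1 library (range -0.296 to 0.544). The others that changed sign were CEBPB with a flank of 50 kb (-0.12) and by number of peaks (-0.0251), CEBPD with a flank of 2 kb (0.19) and in 2 fits without 1 library (range -0.370 to 0.256), and EBF2 (0.49, called) and PPARG (0.0308) by the highest fold. PPARG was called with q under 0.01 (-1.16) and under 0.0001 (-1.78), and CEBPB under 0.0001 (2.48). Genes called higher and lower in liver numbered 774 and 331 with q under 0.01, 3321 and 3153 under 0.0001, 48 and 17 with 50 kb, 29 and 169 without scaling, 44 and 20 with a pseudocount of 1, 194 and 163 with 20, 284 and 206 with the adipose and liver libraries alone and 1370 and 1932 by the highest fold. Equal lists gave 185 higher and no filter 105 lower, and fits without 1 library gave 0 to 175 and 0 to 112.

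At start sites, calls higher and lower numbered 212 and 959 within 500 bp, 7491 and 3048 with q under 0.01, 13274 and 8617 under 0.0001, 1074 and 1374 with equal lists and 908 and 1045 with centring. Fits without 1 library gave 144 to 717 higher. Signs changed at CEBPB (0.46) and CEBPD (0.45) with q under 0.01, at CEBPD under 0.0001 (2.14, called), and without 1 library at CEBPA (range -1.31 to 0.141), CEBPD (-0.428 to 0.288) and the PPARG start of NM_214379.1 (-0.365 to 3.06). In the contrasts of other tissues, the highest fold turned EBF2 (0.0266) and PPARG (-0.18) in spleen, CEBPD in muscle (-0.39) and CEBPD in cerebellum (0.11). A q under 0.0001 turned EBF2 in muscle (0.76) and cerebellum (-0.49), and no scaling (0.0418) and centring (0.27) turned CEBPD in cerebellum. Calls were also lost with unchanged sign. In spleen these were PPARG with q under 0.0001 (0.88) and no scaling (0.64), and EBF2 with q under 0.01 (-1.25), under 0.0001 (-0.85) and equal lists (-1.19). In muscle they were CEBPB with q under 0.0001 (1.66), a pseudocount of 1 (1.53) and the highest fold (0.57), CEBPD with q under 0.01 (0.39), under 0.0001 (0.23), equal lists (0.51), a flank of 2 kb (0.59), number of peaks (0.58) and centring (0.37), and EBF2 with q under 0.01 (-0.27), equal lists (-0.60) and the highest fold (-0.13). In cerebellum they were CEBPD with q under 0.01 (-0.47), equal lists (-0.21), a flank of 50 kb (-0.22) and number of peaks (-0.31), EBF2 by the highest fold (0.06) and PPARG with no scaling (-0.37) and centring (-0.18). With the animal as a replicate block, 307 genes were called higher and 145 lower in adipose, the adjusted p of PPARG was 0.0855, and the block changed no call of a member. The causes of these changes were not tested. Peak lists without read counts and 2 animals per tissue limit all comparisons.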
